A study of Mus musculus with 7 samples.

Results

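The genes described here are 32 genes of endoplasmic reticulum (ER) protein folding and of the unfolded protein response, out of 19938 genes measured on the same arrays. They were taken from a fixed list of gene symbols: the sensors and the transcription factor of the response, lumenal chaperones and their cofactors, disulphide-forming enzymes, ER-associated degradation genes, and translocon and transport genes. Each gene is represented by its brightest probeset that carries 1 gene symbol, and all 32 were measured. The array annotation lists Ero1a as Ero1l and Ero1b as Ero1lb.

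The RNA came from lung CD11b+ conventional dendritic cells (cDC2s), antigen-presenting cells sorted as CD11c+, MHC-II+, CD11b+, Ly6C- and CD64- cells from female mice of a C57Bl/6 background. Of the 7 Affymetrix Mouse Gene 1.0 ST arrays, 3 held cells of Irf3-deficient mice and 2 held cells of wild type mice, all 12 hours after 100 µg of house dust mite (HDM) extract, and 2 held cells of wild type mice 12 hours after saline (PBS). Every array held 1 pool of cells from 10 mice. The Irf3 product is a transcription factor best known for inducing interferon-beta. The labels call the mice Irf3-deficient without describing the allele or the cells in which it is lost. PBS-treated Irf3-deficient mice were not analysed here, so the genotypes are compared after HDM only. The pools of a group are separate samples, and the p-values measure the spread between these pools.

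Proteins that enter the secretory pathway are threaded into the ER through the Sec61 translocon, receive N-glycans and disulphide bonds, and fold with the help of lumenal chaperones. When unfolded proteins accumulate, the membrane sensors IRE1 (gene Ern1), ATF6 (Atf6) and PERK (Eif2ak3) start the unfolded protein response. IRE1 splices the Xbp1 mRNA into a form that encodes an active transcription factor, which together with ATF6 raises chaperone, degradation and transport genes, and PERK slows translation and favours ATF4, which raises genes such as Ddit3 and Ppp1r15a. Conventional dendritic cells are known for constitutive IRE1 and XBP1 activity. The probesets measure total Xbp1 transcript, and splicing was not read from them.

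Short promoter sequences are shown first, because the ER stress response element (ERSE) is the sequence through which ATF6, with NF-Y, and XBP1 are known to act on chaperone genes. RefSeq promoters of the GRCm38.p6 build, from 250 bases before to 50 bases after the annotated start, matched 27 of the 32 genes. Hyou1, Manf, Derl1, Atf6 and Sec61a1 had no entry. ERSE, searched on both strands as CCAAT, 9 bases of any kind and CCACG, stood in the promoters of 9 of the 27 genes, against 37 of all 27025 genes with a promoter (0.137%). ERSE-II, the shorter form ATTGG, 1 base and CCACG, stood in 2 of the 27 (Dnajb11 and Herpud1), against 12 of all genes (0.0444%). The UPR element TGACGTGG stood in 1 (Sec24d), against 193 of all genes (0.714%), and the ATF4-type element TGATGNAAT in 0, against 293 of all genes (1.08%). None of the 27 held more than 1 kind of element. The matches are a description of letters in the window and carry no statement on binding. Each sequence below runs 5′ to 3′ along the strand on which the element reads forward, with the element in capitals and 8 flanking bases on either side in lower case.
Calr, ERSE at chr8:84847067-84847101, plus strand: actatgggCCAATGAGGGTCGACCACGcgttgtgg
Canx, ERSE at chr11:50325792-50325826, minus strand: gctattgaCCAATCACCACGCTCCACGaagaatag
Creld2, ERSE at chr15:88819512-88819546, minus strand: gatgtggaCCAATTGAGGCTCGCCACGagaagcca
Dnajc3, ERSE at chr14:118937819-118937853, plus strand: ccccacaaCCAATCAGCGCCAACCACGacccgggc
Ero1b, ERSE at chr13:12565674-12565708, minus strand: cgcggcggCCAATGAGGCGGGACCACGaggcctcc
Hsp90b1, distal ERSE at chr10:86705630-86705664, minus strand: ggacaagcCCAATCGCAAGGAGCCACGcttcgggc
Hsp90b1, proximal ERSE at chr10:86705525-86705559, plus strand: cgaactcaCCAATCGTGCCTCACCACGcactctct
Hspa5, ERSE at chr2:34772017-34772051, plus strand: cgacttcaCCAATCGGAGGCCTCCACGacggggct
Pdia6, ERSE at chr12:17266483-17266517, plus strand: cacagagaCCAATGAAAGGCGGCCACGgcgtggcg
Syvn1, ERSE at chr19:6046524-6046558, plus strand: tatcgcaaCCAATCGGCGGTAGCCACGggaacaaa
Dnajb11, ERSE-II at chr16:22857844-22857870, plus strand: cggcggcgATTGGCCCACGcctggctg
Herpud1, ERSE-II at chr8:94386369-94386395, plus strand: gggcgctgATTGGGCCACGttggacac

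The full 300-base promoters of Dnajc3, Ero1b and Hsp90b1 show where the elements lie in 3 genes whose levels moved in different directions, as described below. Each is printed along the gene's own strand, so that an element on the opposite strand appears as its reverse complement, again in capitals. Among these, Hsp90b1 holds a pair of elements, 203 and 98 bases before its start, while those of Dnajc3 and Ero1b lie 96 and 192 bases before theirs.
Dnajc3, chr14:118937682-118937981, plus strand: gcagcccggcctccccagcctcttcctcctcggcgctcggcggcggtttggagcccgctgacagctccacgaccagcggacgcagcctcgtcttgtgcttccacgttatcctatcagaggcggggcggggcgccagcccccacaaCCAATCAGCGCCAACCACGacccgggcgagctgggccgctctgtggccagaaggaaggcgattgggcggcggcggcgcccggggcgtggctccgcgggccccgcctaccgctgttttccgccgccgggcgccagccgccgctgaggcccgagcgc
Ero1b, chr13:12565633-12565932, plus strand: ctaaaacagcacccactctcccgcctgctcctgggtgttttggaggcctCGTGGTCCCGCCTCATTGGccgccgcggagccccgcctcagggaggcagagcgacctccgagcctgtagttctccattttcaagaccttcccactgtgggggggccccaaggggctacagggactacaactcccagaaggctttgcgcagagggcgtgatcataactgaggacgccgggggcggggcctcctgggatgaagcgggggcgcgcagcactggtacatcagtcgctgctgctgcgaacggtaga
Hsp90b1, chr10:86705395-86705694, minus strand: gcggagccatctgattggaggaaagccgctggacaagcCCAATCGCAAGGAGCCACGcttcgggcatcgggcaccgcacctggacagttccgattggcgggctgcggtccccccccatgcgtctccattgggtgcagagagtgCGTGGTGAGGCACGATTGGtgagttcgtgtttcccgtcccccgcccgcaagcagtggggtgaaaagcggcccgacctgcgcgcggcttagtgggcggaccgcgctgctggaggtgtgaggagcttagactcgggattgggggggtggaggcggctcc

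Levels are log2 expression values after the authors' normalisation, and 2 arrays of the same group had a correlation of 0.9947 to 0.9972 across genes, against 0.9726 to 0.9898 for arrays of different groups. Irf3 followed the labels, with 8.26, 8.13 and 8.30 in Irf3-deficient HDM cells, 9.59 and 9.57 in wild type HDM cells and 9.48 and 9.56 in wild type PBS cells. It was 2.55-fold lower in Irf3-deficient than in wild type HDM cells (95% CI 2.18 to 2.99, adjusted p = 2.11e-06), and which exons its probes cover is not given. All 12 cDC2 markers, among them Itgax, Itgam, Flt3 and Zbtb46, lay above the dimmest 25% of genes (a mean log2 level under 6.70). So did all measured markers of monocytes and interstitial macrophages, alveolar macrophages, type 1 conventional dendritic cells (cDC1s) and plasmacytoid dendritic cells. This cut therefore does not tell cDC2s from these cells. Tests are two-sided limma contrasts with Benjamini-Hochberg adjustment over all genes, and a gene is called higher or lower where the adjusted p is under 0.05. Every ± beside a log2 difference is a standard error of that fit.

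The 32 genes belonged to the bright part of the arrays. Their mean levels ran between 9.43 for Sec24d, which encodes a cargo-selecting coat protein of ER export vesicles, and 13.41 for Hspa5, which encodes BiP, the main lumenal chaperone. The lowest of them stood at the 72.5th percentile of all genes and their median at the 93.4th percentile, and 0 of 32 lay among the dimmest 25%. The shares of all genes given beside their counts include dim genes, and shares among genes of like brightness were not computed. The pattern shared by most of them was a low level in wild type HDM cells. In 24 of 32 (75.0%) the wild type HDM mean was the lowest of the 3 group means, as it was in 33.2% of all genes, and in 18 of 32 (56.2%) the Irf3-deficient HDM mean was the highest, against 34.3% of all genes. In a limma F test over the 3 groups 20 of 32 passed (62.5%), against 25.5% of all genes. Because these are bulk pools, fewer cells of a type and less RNA per cell cannot be told apart.

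**Figure D1:**
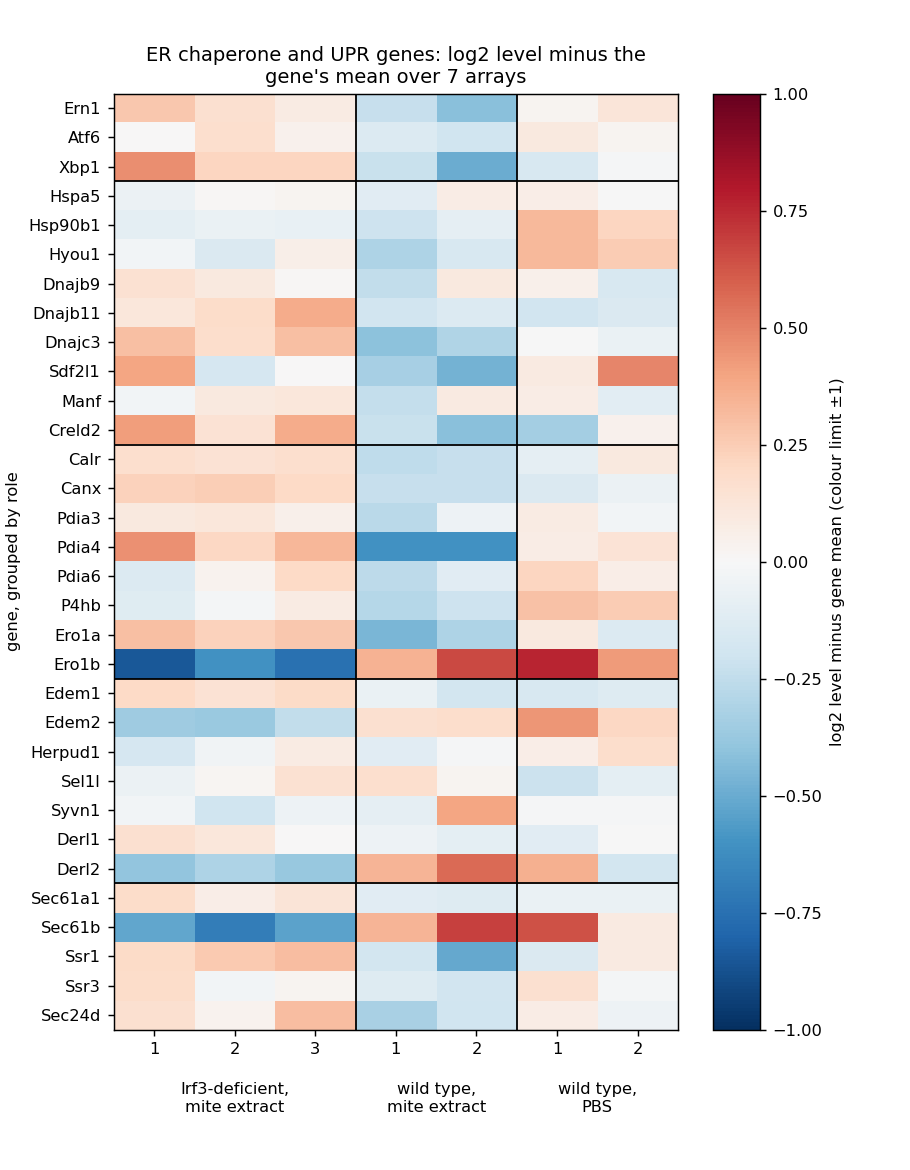
Log2 level of each of the 32 genes (grouped by role, down the page) on each of the 7 arrays (columns), after subtracting the gene's mean over the 7 arrays; red is above and blue below that mean. Most genes are blue on the 2 wild type HDM arrays, and Ero1b, Sec61b, Derl2 and Edem2 are blue on the 3 Irf3-deficient arrays instead.

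Irf3-deficient and wild type cDC2s were first compared after HDM, which asks how HDM-treated cells differ between the genotypes. Without PBS-treated Irf3-deficient cells, a different response to HDM cannot be told from a genotype difference already present before treatment. Higher calls outnumbered lower ones: 14 of 32 genes were called higher (43.8%), against 10.7% of all genes, and 4 were called lower (12.5%), against 9.0% of all genes. The median log2 difference was 0.235 over the 32 genes and 0.002 over all genes, and single differences ran between -1.24 and 0.93. The genes called higher were the sensor gene Ern1, Xbp1, the chaperones and cofactors Dnajb11, Dnajc3, Sdf2l1, Creld2, Calr and Canx, the disulphide genes Pdia4 and Ero1a, Edem1, Sec61a1, Ssr1 and Sec24d. Those called lower were Ero1b, Sec61b, Derl2 and Edem2. Groups did not overlap for 20 of 32 genes in the higher direction (62.5%, against 23.2% of all genes) and for 4 in the lower direction (12.5%, against 20.5% of all genes).

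Among sensors and transducers, Xbp1 and Ern1 were higher in Irf3-deficient cells. Xbp1 had log2 levels of 13.04, 12.79 and 12.79 in Irf3-deficient HDM cells, against 12.35 and 12.08 in wild type HDM cells, a difference of 0.66 ± 0.11 (1.58-fold, 95% CI 1.34 to 1.86, adjusted p = 0.000885). Ern1, which encodes the kinase and endoribonuclease IRE1, had 10.10, 9.99 and 9.91 in Irf3-deficient HDM cells, against 9.60 and 9.41 in wild type HDM cells (0.49 ± 0.11, adjusted p = 0.00651). All 3 Irf3-deficient pools lay above both wild type pools for either gene. Atf6, the gene of the other transcriptional sensor, also did not overlap but missed the threshold, at 0.24 ± 0.10 (adjusted p = 0.106).

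Hspa5 and several other chaperone and cofactor genes did not pass between the treated genotypes. BiP, the Hspa5 product, binds nascent chains in the lumen and holds the sensors inactive. Its levels were 13.35, 13.43 and 13.44 in Irf3-deficient HDM cells, 13.30 and 13.49 in wild type HDM cells, and 13.48 and 13.41 in wild type PBS cells. These 3 ranges overlapped, and the difference between the treated genotypes was 0.01 with a 95% interval of -0.16 to 0.18 (adjusted p = 0.961). Hsp90b1, the gene of the lumenal HSP90 protein GRP94, differed by 0.07 between the treated genotypes (95% CI -0.11 to 0.24, adjusted p = 0.673). Neither Hyou1, a nucleotide exchange factor of BiP (0.20, adjusted p = 0.233), nor the J-domain cofactor Dnajb9 (0.16, adjusted p = 0.441) nor the secreted ER stress protein Manf (0.14, adjusted p = 0.563) passed.

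The cofactors Dnajc3, Creld2, Dnajb11 and Sdf2l1 were higher. Dnajc3, a J-domain protein that partners BiP and inhibits PERK, had 11.75, 11.63 and 11.75 in Irf3-deficient HDM cells, against 11.04 and 11.15 in wild type HDM cells (0.62 ± 0.09, adjusted p = 0.000484). Both probesets that carry its symbol gave identical values on all arrays, so they count as 1 measurement. Creld2, a secreted ER stress-induced protein, had 11.89, 11.61 and 11.85 in Irf3-deficient HDM cells, against 11.25 and 11.06 in wild type HDM cells (0.63 ± 0.13, adjusted p = 0.00388). Dnajb11 differed by 0.39 ± 0.10 (adjusted p = 0.0181) and Sdf2l1 by 0.48 ± 0.16 (adjusted p = 0.0475). The groups did not overlap for these 4 genes, although the lowest Irf3-deficient value of Sdf2l1, 11.76, came close to its higher wild type HDM value, 11.60.

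Calr and Canx, the lectin chaperones that hold glycoproteins during folding, were both higher with little spread. Canx had 13.43, 13.44 and 13.40 in Irf3-deficient HDM cells, against 12.97 and 12.97 in wild type HDM cells (0.45 ± 0.07, 1.37-fold, 95% CI 1.23 to 1.52, adjusted p = 0.000632). Calr had 13.34, 13.31 and 13.34 in Irf3-deficient HDM cells, against 12.91 and 12.94 in wild type HDM cells (0.40 ± 0.08, adjusted p = 0.00265). Pdia3, the disulphide isomerase that works with these lectins, did not overlap between the groups and missed the threshold, at 0.25 ± 0.09 (adjusted p = 0.0681).

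Pdia4 showed the highest positive difference of the 32 genes. The isomerase had 12.45, 12.20 and 12.33 in Irf3-deficient HDM cells, against 11.39 and 11.39 in wild type HDM cells (0.93 ± 0.09, 1.91-fold, 95% CI 1.66 to 2.20, adjusted p = 2.13e-05). A second, dim probeset of Pdia4, at a mean of 7.19, gave a difference of 0.28 in the same direction. Ero1a, the oxidase that recharges disulphide isomerases, had 11.07, 11.00 and 11.04 in Irf3-deficient HDM cells, against 10.32 and 10.46 in wild type HDM cells (0.65 ± 0.11, adjusted p = 0.000778). The isomerases Pdia6 and P4hb, at 0.22 (adjusted p = 0.243) and 0.23 (adjusted p = 0.119), did not pass.

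Ero1b, the second ER oxidase gene, differed the other way. Its levels were 9.06, 9.30 and 9.16 in Irf3-deficient HDM cells, against 10.25 and 10.57 in wild type HDM cells, a difference of -1.24 ± 0.14 (2.36-fold lower, 95% CI 1.92 to 2.89, adjusted p = 4.44e-05). Ero1a and Ero1b, which carry out the same reaction, thus stood on opposite sides of the genotype comparison, and the groups did not overlap for either. Of the genes with an ERSE shown above, Calr, Canx, Creld2 and Dnajc3 were called higher, Ero1b lower, and Hsp90b1, Hspa5, Pdia6 and Syvn1 did not pass.

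**Figure D2:**
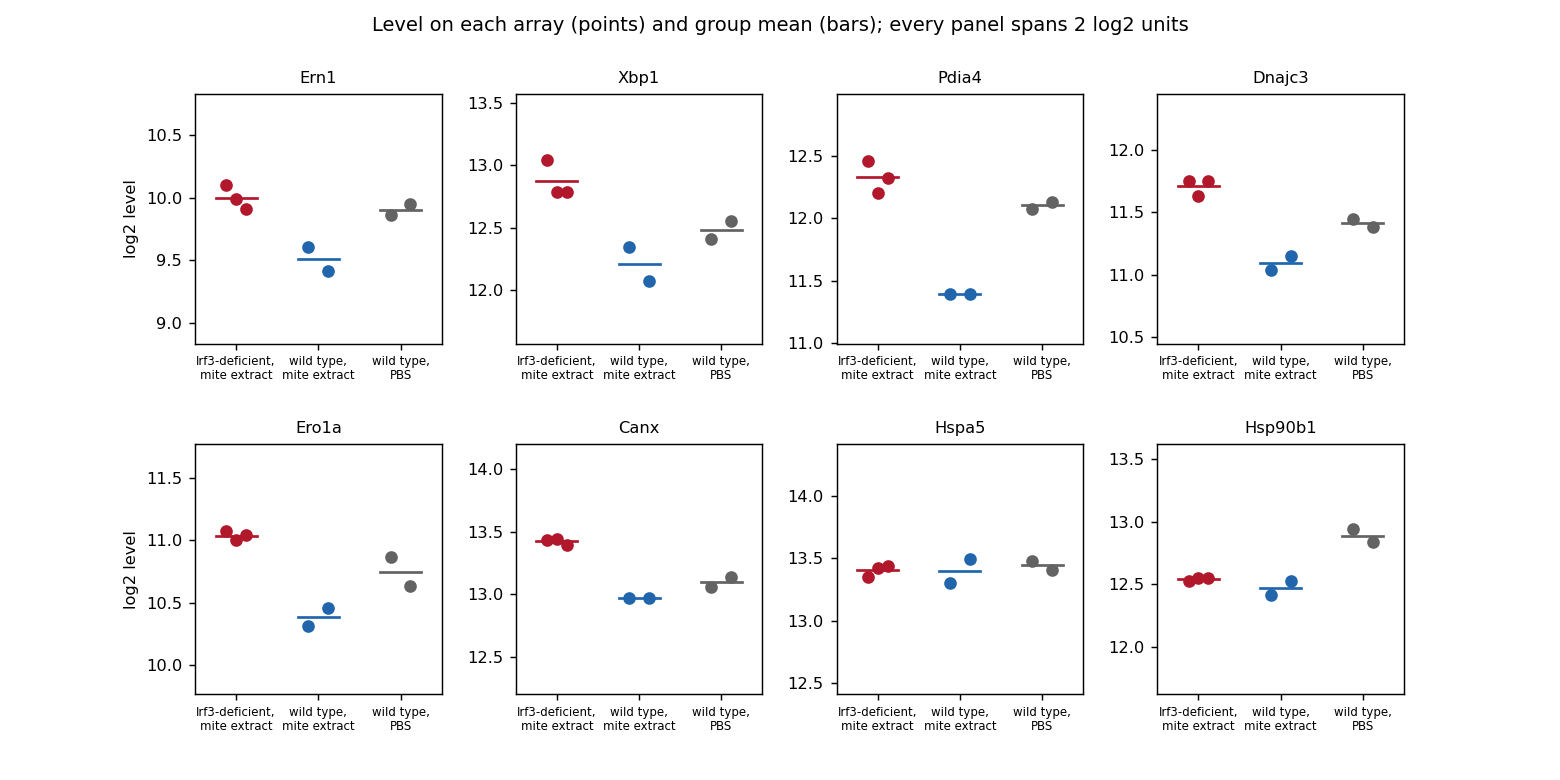
Log2 level of 8 genes on each array (points) with the group mean (bars), for Irf3-deficient HDM, wild type HDM and wild type PBS cells from left to right; every panel spans 2 log2 units and none starts at 0. Ern1, Xbp1, Pdia4, Dnajc3, Ero1a and Canx are lowest in wild type HDM cells, Hspa5 overlaps in all groups (13.30 to 13.49), and Hsp90b1 is highest in wild type PBS cells (12.94 and 12.84).

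Degradation and transport genes split between the directions. Edem1, a lectin that extracts misfolded glycoproteins from folding cycles, was higher in Irf3-deficient cells (12.77, 12.71 and 12.76, against 12.50 and 12.38 in wild type HDM cells, 0.30 ± 0.08, adjusted p = 0.0163). Its relative Edem2 was lower, with 9.48, 9.46 and 9.59 in Irf3-deficient HDM cells, against 10.00 and 10.02 in wild type HDM cells (-0.50 ± 0.11, adjusted p = 0.00609). The retrotranslocation gene Derl2 was lower as well, with 9.28, 9.37 and 9.30 in Irf3-deficient HDM cells, against 10.02 and 10.25 in wild type HDM cells (-0.82 ± 0.15, 1.76-fold lower, 95% CI 1.41 to 2.19, adjusted p = 0.0015). Its paralogue Derl1 differed by 0.17 (adjusted p = 0.312). Herpud1, Sel1l and Syvn1, which build the HRD1 ubiquitin ligase complex of the ER membrane, stood at 0.02, -0.06 and -0.25 with adjusted p-values of 0.936, 0.79 and 0.27.

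At the translocon, Sec61a1, the channel subunit, was higher and Sec61b, the small beta subunit, was lower. Sec61b had 9.14, 8.97 and 9.12 in Irf3-deficient HDM cells, against 10.00 and 10.34 in wild type HDM cells (-1.10 ± 0.16, 2.14-fold lower, 95% CI 1.69 to 2.71, adjusted p = 0.000331). Its other 2 probesets gave -1.04 and -1.05; near-identical gene copies could share such probes. Sec61a1 differed by 0.25 ± 0.08 (adjusted p = 0.0422). Ssr1, a subunit of the translocon-associated TRAP complex, had 12.61, 12.68 and 12.72 in Irf3-deficient HDM cells, against 12.23 and 11.90 in wild type HDM cells (0.60 ± 0.11, adjusted p = 0.00168). Ssr3, of the same complex, stood at 0.22 (adjusted p = 0.16), and Sec24d was higher by 0.43 ± 0.12 (adjusted p = 0.0186).

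Small RNA genes were also low on the Irf3-deficient arrays, beside the 4 genes called lower. Over 54 small nucleolar and Cajal body RNA genes, a set chosen after its values were seen, the median level was 8.50, 8.76 and 8.80 in Irf3-deficient HDM cells, 9.33 and 9.77 in wild type HDM cells, and 9.46 and 9.15 in wild type PBS cells. In both wild type groups the pool with the higher small RNA median also had the higher values of all 4 genes. Over 31 Nduf genes, which encode subunits of mitochondrial complex I and were likewise chosen after their values were seen, the median was 10.04, 10.02 and 9.99 in Irf3-deficient HDM cells, 10.22 and 10.25 in wild type HDM cells, and 10.48 and 10.30 in wild type PBS cells. The part of these differences between pools in the 4 results was not tested.

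**Figure D3:**
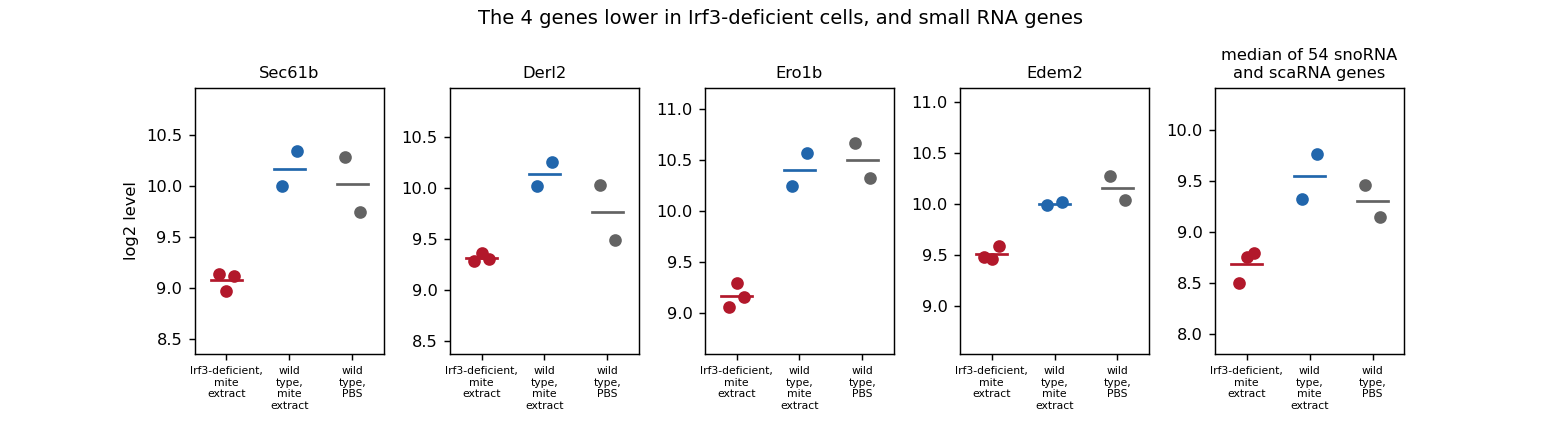
Log2 level on each array (points) and group mean (bars) of Sec61b, Derl2, Ero1b and Edem2, and, at the right, the median of 54 small nucleolar and Cajal body RNA genes; groups run from Irf3-deficient HDM through wild type HDM to wild type PBS. The 3 Irf3-deficient arrays are the lowest in all 5 panels, between 8.50 and 8.80 for the small RNA genes.

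Markers of other cells were read beside this comparison, in which 10.7% of all genes were called higher and 9.0% lower. Plasma cells are rich in ER chaperones. Of their 10 markers 0 were called in any comparison, Jchain, Fkbp11 and Cd79a lay among the dimmest 25%, and the log2 of their summed levels was 11.93 to 12.13 in Irf3-deficient HDM cells, 11.75 to 11.91 in wild type HDM cells and 11.83 to 11.92 in wild type PBS cells. Prdm1, the brightest of these markers, weighs most in the sum, with means of 10.88, 10.43 and 10.43 in these groups. Most monocyte and interstitial macrophage markers did move with the module. Of 12, 9 were called higher and 2 lower in Irf3-deficient cells, and their log2 summed level was 15.02 to 15.12 in Irf3-deficient HDM cells, 13.81 to 14.45 in wild type HDM cells and 15.37 to 15.69 in wild type PBS cells, with 0 of 12 among the dimmest 25%. The 2 lower ones were Apoe and Fcgr1, the gene of CD64, which the cells were sorted to lack. Fcgr1 had means of 9.13 in Irf3-deficient HDM cells, 10.80 in wild type HDM cells and 9.01 in wild type PBS cells. Of the 12 cDC2 markers, 5 were called higher and 1 lower in Irf3-deficient cells. The summed level of the cDC2 markers was 16.55 to 16.63 in Irf3-deficient HDM cells, 16.39 on both wild type HDM arrays and 16.58 to 16.60 in wild type PBS cells. Of 8 cDC1 markers, 1 was called higher and 3 lower in Irf3-deficient cells, and 3 differences were positive and 5 negative. Their log2 summed level was 12.61 to 12.81 in Irf3-deficient HDM cells, 13.23 to 13.54 in wild type HDM cells and 12.58 to 12.84 in wild type PBS cells. Irf8, the brightest of them, weighs most in this sum, with means of 11.4, 12.6 and 11.0 in these groups. The part of these markers, of cDC2s and of other cells, in the chaperone differences was not tested.

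Of the 18 calls between the treated genotypes, 12 stood in all 14 alternative analyses: Calr, Canx, Pdia4, Ero1a, Dnajc3, Creld2, Xbp1 and Ssr1 higher, and Ero1b, Sec61b, Derl2 and Edem2 lower. Ern1 was lost without wild type HDM replicate 2 (0.40, adjusted p = 0.0809), Edem1 without that pool (0.24, adjusted p = 0.145) or Irf3-deficient replicate 3, Sec24d without wild type HDM replicate 1 (0.36, adjusted p = 0.129) or Irf3-deficient replicate 3, and Dnajb11 without any of these 3 pools (adjusted p of 0.0592 to 0.0935). Sdf2l1 was lost without either wild type HDM pool or Irf3-deficient replicate 1 or 3 (adjusted p of 0.0707 to 0.218), and Sec61a1 without any 1 of the 7 pools (adjusted p of 0.0568 to 0.164). Without Irf3-deficient replicate 3 the count of genes called higher was 9.

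Wild type cells were then compared after HDM and after PBS, which asks how the allergen changed the same genes when Irf3 was present. Chaperone and folding genes were called lower or not at all: 8 of 32 were lower after HDM, against 9.23% of all genes, and 0 were higher, against 8.35% of all genes. At 24 genes the test did not pass. The median log2 difference was -0.185 over the 32 genes and 0.029 over all genes, and single differences ran between -0.71 and 0.37. For 20 of 32 genes both HDM pools lay below both PBS pools (62.5%, against 24.1% of all genes). This comparison and the one between genotypes share the wild type HDM arrays with opposite signs, so a low wild type HDM value enters both and they are not independent.

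Pdia4 fell to 11.39 and 11.39 in wild type HDM cells, against 12.07 and 12.13 in wild type PBS cells, a difference of -0.71 ± 0.10 (1.63-fold lower, 95% CI 1.40 to 1.91, adjusted p = 0.000371). P4hb, the gene of protein disulphide isomerase itself, had 11.46 and 11.54 in wild type HDM cells, against 12.04 and 12.00 in wild type PBS cells (-0.52 ± 0.10, adjusted p = 0.00311). Hyou1 had 10.70 and 10.84 in wild type HDM cells, against 11.33 and 11.26 in wild type PBS cells (-0.52 ± 0.11, adjusted p = 0.00537). These 3 genes of the folding machinery stayed lower in all 14 alternative analyses.

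Hsp90b1 and Sdf2l1 were lower too. Hsp90b1 had 12.42 and 12.53 in wild type HDM cells, against 12.94 and 12.84 in wild type PBS cells (-0.42 ± 0.09, adjusted p = 0.0052). Sdf2l1, a cofactor that works with Dnajb11 and BiP, had 11.60 and 11.46 in wild type HDM cells, against 12.02 and 12.42 in wild type PBS cells (-0.69 ± 0.17, adjusted p = 0.0129). The PBS pools of Sdf2l1 lay further apart than those of the other genes called lower. Ern1, Ero1a and Dnajc3 passed near the threshold, at -0.40 (adjusted p = 0.0383), -0.36 (adjusted p = 0.0475) and -0.32 (adjusted p = 0.0471).

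The remaining genes are given by their values. Calr, Ssr1, Pdia6 and Xbp1 did not overlap between the wild type groups, at -0.25 (adjusted p = 0.0666), -0.32 (adjusted p = 0.0924), -0.33 (adjusted p = 0.105) and -0.27 (adjusted p = 0.156). Hspa5 stood at -0.05 (95% CI -0.24 to 0.14, adjusted p = 0.784). The 4 genes that were lower in Irf3-deficient cells showed no called response in wild type, with Derl2 at 0.37 (adjusted p = 0.148), Sec61b at 0.15 (adjusted p = 0.644), Ero1b at -0.09 (adjusted p = 0.766) and Edem2 at -0.15 (adjusted p = 0.468). For all 4 genes the PBS pools differed from each other by more than the HDM mean did from the PBS mean. Derl2 had 10.02 and 10.25 in wild type HDM cells, against 10.03 and 9.50 in wild type PBS cells. The PBS pools stood at 10.29 and 9.75 for Sec61b, 10.67 and 10.33 for Ero1b, and 10.28 and 10.04 for Edem2.

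Monocyte and interstitial macrophage markers also fell in wild type cells after HDM, with 11 of 12 called lower and 1, Fcgr1, higher, over the summed levels given above. Of 12 cDC2 markers, 4 were called lower and 2 higher. In this comparison 9.23% of all genes were called lower and 8.35% higher. Of 10 lung epithelium markers 4 were called lower and 0 higher, with a log2 summed level of 13.64 to 13.86 in Irf3-deficient HDM cells, 13.70 to 14.54 in wild type HDM cells and 14.40 to 14.72 in wild type PBS cells, and Scgb3a2 among the dimmest 25%. The part of these markers' cells in the chaperone differences was not tested. Of the 8 calls, Hsp90b1 was lost without wild type PBS replicate 1 (-0.36, adjusted p = 0.0579), and Sdf2l1 without wild type PBS replicate 2 (-0.49, adjusted p = 0.14) or wild type HDM replicate 2 (-0.62, adjusted p = 0.0698). Dnajc3 was lost without any pool other than Irf3-deficient replicate 1 (adjusted p up to 0.203), Ern1 without any pool other than wild type HDM replicate 1 and Irf3-deficient replicate 1 (up to 0.242), and Ero1a without any pool other than wild type PBS replicate 2 and Irf3-deficient replicate 1 (up to 0.311). The count of genes called lower was 4 without wild type HDM replicate 2 and 5 without wild type PBS replicate 1 or 2 or Irf3-deficient replicate 2 or 3.

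**Figure D4:**
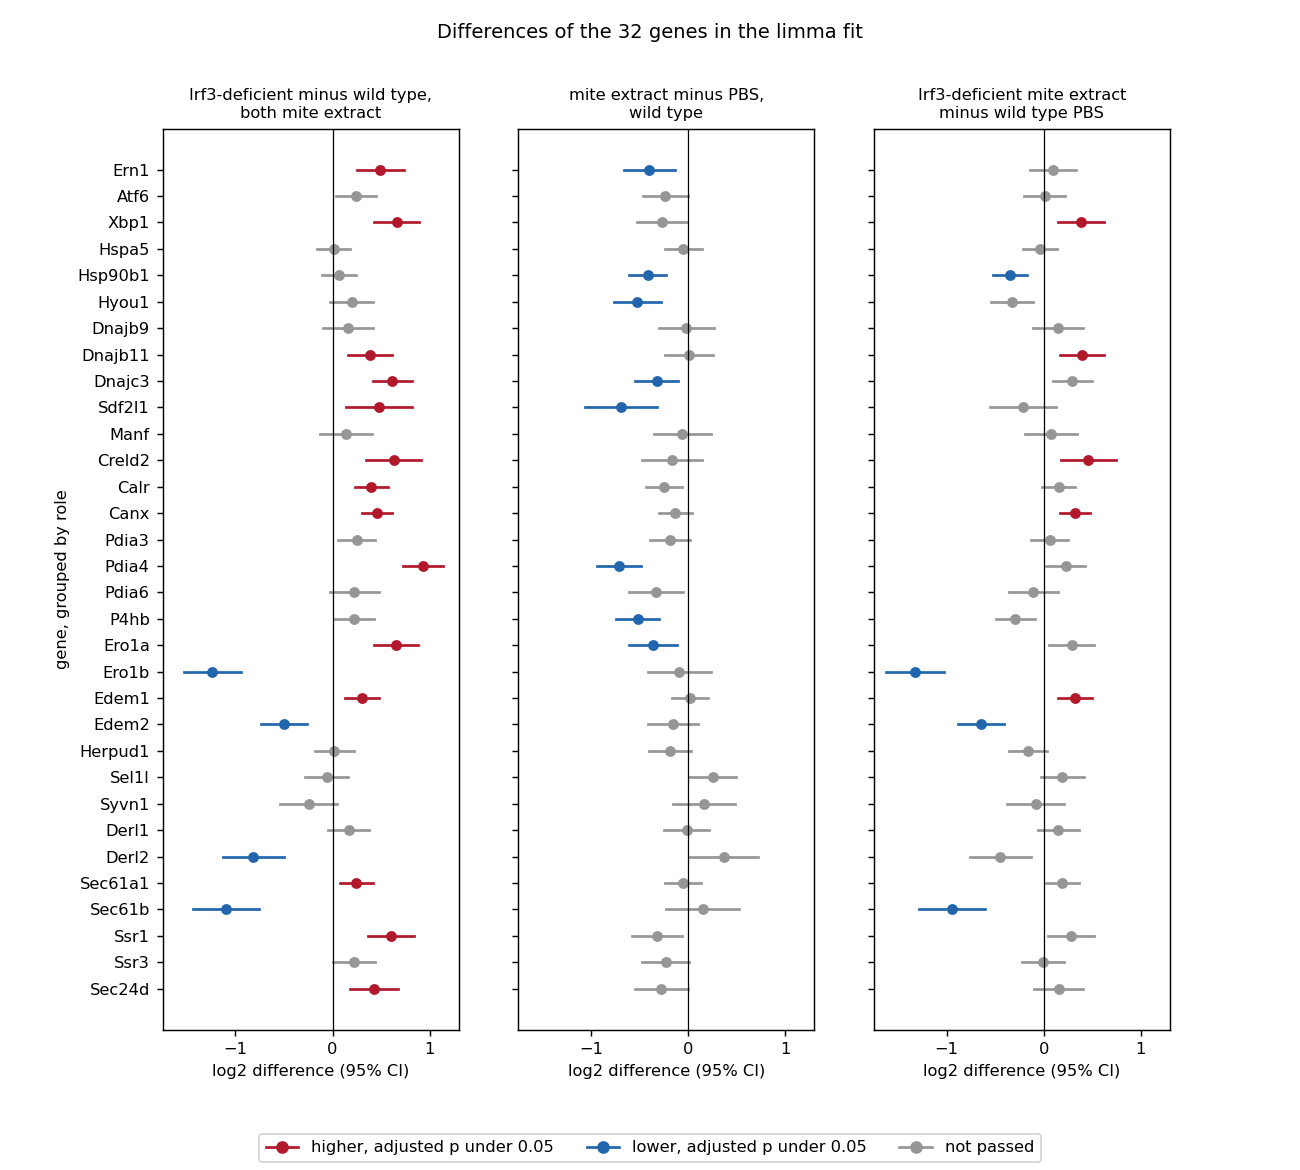
Log2 difference (points) with its 95% confidence interval (lines) of each of the 32 genes in the limma fit, for Irf3-deficient minus wild type cells after HDM (left), HDM minus PBS in wild type cells (middle) and Irf3-deficient HDM minus wild type PBS cells (right); red and blue mark genes called higher and lower, grey those that did not pass. The left panel holds 14 red and 4 blue genes, the middle panel 8 blue, and the right panel 5 red and 4 blue.

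Irf3-deficient HDM cells were last set against wild type PBS cells, 2 groups that differ in genotype and treatment at once. Here 5 of 32 genes were called higher (15.6%), against 5.89% of all genes, and 4 lower (12.5%), against 4.91% of all genes. The median difference was 0.09 over the 32 genes and 0.04 over all genes. Creld2 (0.46 ± 0.13, adjusted p = 0.0391), Dnajb11 (0.39 ± 0.10, adjusted p = 0.0293), Xbp1 (0.39 ± 0.11, adjusted p = 0.0381), Canx (0.32 ± 0.07, adjusted p = 0.0117) and Edem1 (0.32 ± 0.08, adjusted p = 0.0211) were higher. Xbp1 had 13.04, 12.79 and 12.79 in Irf3-deficient HDM cells, against 12.41 and 12.56 in wild type PBS cells. Ero1b was lower (-1.33 ± 0.14, adjusted p = 9.89e-05), with 9.06, 9.30 and 9.16 in Irf3-deficient HDM cells, against 10.67 and 10.33 in wild type PBS cells. Sec61b (-0.94 ± 0.16, adjusted p = 0.0023), Edem2 (-0.65 ± 0.11, adjusted p = 0.00246) and Hsp90b1 (-0.35 ± 0.08, adjusted p = 0.0155) were the other genes called lower. Beside them, 4 of 10 lung epithelium markers were called lower and 1 higher, and 4 of 12 monocyte and interstitial macrophage markers lower and 0 higher, and their part in these calls was not tested.

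Pdia4, Ern1 and Sdf2l1 stood at 0.23 (95% CI 0.02 to 0.43, adjusted p = 0.169), 0.10 (-0.14 to 0.33, adjusted p = 0.684) and -0.21 (-0.55 to 0.12, adjusted p = 0.476) here. Of the 9 calls, Ero1b, Sec61b and Edem2 stayed called in all 14 alternatives. Without wild type PBS replicate 1 the count of genes called higher was 0, with adjusted p-values of 0.133 for Canx, 0.157 for Edem1, 0.185 for Dnajb11, 0.304 for Xbp1 and 0.421 for Creld2, and Hsp90b1 stood at -0.29 (adjusted p = 0.172). It was 2 without wild type PBS replicate 2, 3 without Irf3-deficient replicate 1, and 1 without Irf3-deficient replicate 2 or 3.

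Wider gene lists of the pathway, none of which holds any of the 32 genes, place these values among their neighbours. Their counts are to be read beside the shares of all genes. Between the treated genotypes 10.7% of all genes were called higher and 9.0% lower, and in wild type after HDM 8.35% and 9.23%. The lower calls between the treated genotypes in the translocon list (2 of 20) and among other disulphide and folding enzymes (2 of 28) lie near that share. Sensors and transducers were split between the directions. Of 22 measured sensors and transducers, 4 were called higher and 5 lower in Irf3-deficient than in wild type HDM cells, and 5 were higher and 3 lower in wild type cells after HDM than after PBS. Eif2ak3, the PERK gene, had 9.44, 9.34 and 9.34 in Irf3-deficient HDM cells, 9.06 and 8.81 in wild type HDM cells, and 9.73 and 9.51 in wild type PBS cells. It was higher in Irf3-deficient than in wild type HDM cells (0.44 ± 0.12, adjusted p = 0.0191) and lower after HDM in wild type (-0.69 ± 0.13, adjusted p = 0.00239). Creb3l2, a membrane-bound transcription factor gene related to Atf6, was likewise higher between the treated genotypes (0.88 ± 0.15, adjusted p = 0.00115) and lower after HDM in wild type (-0.98 ± 0.17, adjusted p = 0.00116). Wfs1, which encodes an ER membrane protein, was higher between the treated genotypes (0.51 ± 0.13, adjusted p = 0.0124). Ddit3 (CHOP) and Ppp1r15a (GADD34, a phosphatase subunit), known PERK-pathway targets, were lower between the treated genotypes and higher after HDM in wild type. Ppp1r15a had 11.38, 11.31 and 11.22 in Irf3-deficient HDM cells, 11.77 and 11.86 in wild type HDM cells, and 10.93 and 10.97 in wild type PBS cells. Its difference was -0.51 ± 0.09 between the treated genotypes (adjusted p = 0.00202) and 0.86 ± 0.10 after HDM in wild type (adjusted p = 7.71e-05). Ddit3 had 8.53, 8.56 and 8.62 in Irf3-deficient HDM cells, 8.98 and 9.22 in wild type HDM cells, and 8.36 and 8.54 in wild type PBS cells (-0.53 ± 0.11 between the treated genotypes, adjusted p = 0.00498, and 0.66 ± 0.13 after HDM in wild type, adjusted p = 0.0026). Atf4, Trib3, Chac1 and Nupr1, of the same list, differed less between the treated genotypes. Means in Irf3-deficient HDM, wild type HDM and wild type PBS cells were 9.95, 9.88 and 9.71 for Atf4. They were 7.8, 7.9 and 7.7 for Trib3, 8.72, 8.59 and 8.24 for Chac1, and 10.24, 10.10 and 9.69 for Nupr1. Against wild type PBS cells, Chac1 (adjusted p = 0.0146), Nupr1 (0.0258) and Ppp1r15a (0.0302) were called higher in Irf3-deficient HDM cells. Traf2, an adaptor that binds IRE1 and also serves TNF receptors, was lower in Irf3-deficient than in wild type HDM cells (-1.02 ± 0.11, adjusted p = 4.86e-05) and 2.10-fold higher after HDM in wild type (adjusted p = 5.82e-05).

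Glycosylation, translocation and export genes had more higher than lower calls between the treated genotypes. Of 18 oligosaccharyltransferase and N-glycan folding genes, 8 were higher and 0 lower in Irf3-deficient than in wild type HDM cells (median 0.18), and 0 were higher and 9 lower in wild type cells after HDM (median -0.35). Uggt1, the glycoprotein folding sensor, had 11.72, 11.56 and 11.52 in Irf3-deficient HDM cells, 11.09 and 10.87 in wild type HDM cells, and 11.78 and 11.87 in wild type PBS cells. Stt3b, a catalytic subunit of oligosaccharyltransferase, was higher in Irf3-deficient than in wild type HDM cells (0.57 ± 0.10, adjusted p = 0.0011) and lower in wild type cells after HDM (-0.58 ± 0.11, adjusted p = 0.00195). Of 20 translocon and signal peptidase genes, 7 were higher and 2 lower between the treated genotypes, and 0 were higher and 4 lower after HDM in wild type. Sec63, a translocon partner of BiP, was higher in Irf3-deficient than in wild type HDM cells by 0.78 ± 0.11 (adjusted p = 0.000323). Srp14 of the signal recognition particle was lower there (-1.08 ± 0.22, adjusted p = 0.00367). Its wild type pools stood apart, at 9.21 and 9.73 after HDM and 9.90 and 9.08 after PBS. In both wild type groups the pool with the higher small RNA median also had the higher Srp14 value, and a link was not tested. Of 26 COPII and retrieval genes, 5 were higher and 0 lower between the treated genotypes, and after HDM in wild type they were split, with 3 higher and 4 lower. The cargo receptor gene Lman1 had 11.66, 11.49 and 11.57 in Irf3-deficient HDM cells, 10.72 and 10.67 in wild type HDM cells, and 11.27 and 11.37 in wild type PBS cells.

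The other lists varied. Of 28 other disulphide and folding enzymes, 5 were higher and 2 lower between the treated genotypes and 0 higher and 8 lower after HDM in wild type, with the thioredoxin-related gene Tmx4 at 1.05 ± 0.13 between the treated genotypes (adjusted p = 9.81e-05). Of 24 further degradation genes, 5 were higher and 4 lower between the treated genotypes, and 4 higher and 1 lower after HDM in wild type. The 8 listed substrates of IRE1-dependent mRNA decay gave 0 higher and 2 lower between the treated genotypes, and 1 higher and 3 lower after HDM in wild type. Tapbp, which encodes tapasin of the MHC class I loading complex, accounted for the higher one: it had 11.94, 11.91 and 11.95 in Irf3-deficient HDM cells, 12.89 and 12.96 in wild type HDM cells, and 11.87 and 11.83 in wild type PBS cells.

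Chaperones outside the ER went the other way. Of 21 cytosolic and mitochondrial chaperone genes, 1 was higher and 10 lower in Irf3-deficient than in wild type HDM cells (median -0.32), and 11 were higher and 0 lower in wild type cells after HDM (median 0.44). Cct3, a subunit of the cytosolic chaperonin TRiC, had 11.03, 11.05 and 11.21 in Irf3-deficient HDM cells, 12.01 and 12.03 in wild type HDM cells, and 10.73 and 10.91 in wild type PBS cells. Its difference was -0.93 ± 0.10 between the treated genotypes (adjusted p = 4.27e-05) and 1.20 ± 0.11 after HDM in wild type (adjusted p = 9.06e-06). Hsp90aa1, the inducible cytosolic HSP90 gene, had 12.58, 12.34 and 12.33 in Irf3-deficient HDM cells, 12.91 and 13.20 in wild type HDM cells, and 12.37 and 12.36 in wild type PBS cells. In wild type cells, both HDM pools lay above both PBS pools for 12 of the 21 genes, against 28.5% of all genes. They lay below for 3, against 24.1% of all genes. The count called higher fell without wild type PBS replicate 1, an omission that leaves 1 array in that group.

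**Figure D5:**
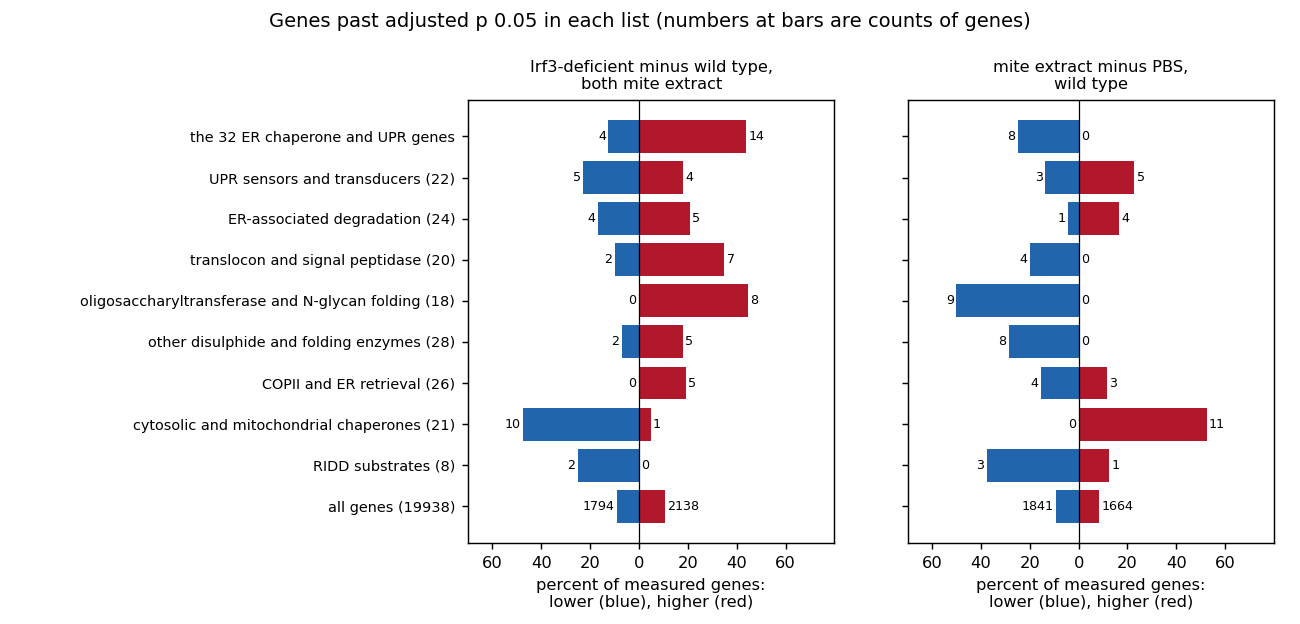
Share of the measured genes of each list called higher (red, right) and lower (blue, left) at an adjusted p under 0.05, in percent, for Irf3-deficient minus wild type cells after HDM (left panel) and HDM minus PBS in wild type cells (right panel), with counts at the bars and all 19938 genes at the bottom. Apart from the sensors and the IRE1-dependent decay substrates (RIDD), the ER lists have more genes higher than lower in the left panel, with 14 of the 32 genes higher, while cytosolic and mitochondrial chaperones lie to the left, with 10 of 21 lower.

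Other list counts also changed when single pools were left out, and the lowest count is given here where it moved by more than 1.5 times. Omission of a wild type pool leaves 1 array in its group. Dependence on that pool and the loss of an array cannot be told apart there. Between the treated genotypes, omission of wild type HDM replicate 1 left 4 translocon and 5 oligosaccharyltransferase and N-glycan genes higher. Omission of wild type HDM replicate 2 left 2 sensors, 2 degradation genes, 2 disulphide and folding enzymes and 3 COPII genes higher, and 3 sensors, 2 degradation genes, 1 translocon gene and 1 disulphide and folding enzyme lower. In wild type after HDM, omission of wild type PBS replicate 1 left 5 oligosaccharyltransferase and N-glycan, 2 translocon and 0 degradation genes lower and 0 COPII genes higher. Omission of wild type HDM replicate 2 left 3 disulphide and folding enzymes lower, and omission of wild type HDM replicate 1 left 1 degradation gene higher. With median centring 2 COPII genes were lower in wild type after HDM, and after a second quantile normalisation 6.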

How the data were processed

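RNA of 7 pools of sorted lung cDC2s was hybridised to Affymetrix Mouse Gene 1.0 ST arrays. The authors deposited log2 expression values for 35556 probesets. Per the submitters' processing notes the tools were R 3.2.1, oligo and RMA, whose roles and order are not given. RMA as usually run includes quantile normalisation, which would remove a shift common to most transcripts. Medians of single arrays were 7.60 to 7.69. Detection calls, scan dates and the genome build are not given in the sources used here, and precision is limited by the number of arrays.

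The platform annotation gave 1 symbol to 21789 probesets and several to 1621, and did not list 12146. The brightest single-symbol probeset stood for each of 19938 genes, 999 of which had several probesets, and 19856 matched RefSeq by Entrez identifier. A limma 3.58.1 model in R 4.3.3 estimated the 3 group means from all 7 arrays (eBayes with an intensity trend, 4 residual and 8.34 prior degrees of freedom), after a test on simulated data. The 32 genes, lists, markers and motifs were chosen with earlier results of these data known. Named genes are the 32, Irf3 and, per wider list and comparison, up to 3 called genes per direction with the smallest p. Atf4 and Trib3 were added after their values were seen. The 3 promoters printed whole were picked after their values were seen. The 14 alternatives were median centring, a second quantile normalisation, omission of the dimmest 25% of genes, the mean of a gene's probesets, no intensity trend, only the 2 groups compared, the replicate number as a block, and omission of each array. Wider list counts under them were added after the data were seen. Protein sequences were not used here.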

Additional observations from a re-analysis of the deposited data

How the results depend on the processing

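Of the calls, 3 of 8 in wild type after HDM, 12 of 18 between the treated genotypes and 3 of 9 between Irf3-deficient HDM and wild type PBS cells stood in all 14 alternatives, and 0 of them changed sign. Genes called lower in wild type after HDM numbered 13 of the 32 after a second quantile normalisation, 5 with the replicate block, 5 with only the 2 groups and 4 to 8 with single pools left out, and those called higher 0 to 1. Between the treated genotypes 9 were higher with the replicate block and 9 to 13 without single pools. Between Irf3-deficient HDM and wild type PBS cells the 5 higher and 4 lower became 1 and 6 after the quantile step, 4 and 4 after median centring, 0 higher with the block and 0 to 5 higher without single pools. Over all genes, single omissions gave 2562 to 3906 calls between the treated genotypes, 2333 to 3724 in wild type after HDM and 749 to 2359 between Irf3-deficient HDM and wild type PBS cells, where the block gave 1426. Deviations of same-numbered arrays from their group means correlated at -0.233 to 0.178. With 2 arrays in each wild type group, the 2 deviations of a group mirror each other. These values therefore cannot show whether the numbers pair the arrays. The block left 2 residual degrees of freedom, and why calls were lost under it was not tested. A crossed pairing of the wild type arrays, added after the data were seen, gave 4332 calls, with 1 of the 32 higher and 12 lower. Signs turned for 19 differences, 0 of them called. Between the treated genotypes Hspa5 was -0.010 with median centring and -0.007 with the block, and Herpud1 was -0.001 and -0.042. After the quantile step Dnajb11 was -0.045 and Edem1 -0.117 in wild type after HDM, and Pdia3 -0.014 and Atf6 -0.081 in Irf3-deficient HDM against wild type PBS cells, where Ssr3 was 0.009 with the block. Leaving out single pools, the ranges in wild type after HDM were -0.258 to 0.078 for Ero1b, -0.191 to 0.154 for Dnajb9, -0.024 to 0.035 for Dnajb11, -0.224 to 0.105 for Manf, -0.364 to 0.024 for Creld2, -0.068 to 0.036 for Derl1, -0.122 to 0.425 for Sec61b, -0.145 to 0.048 for Hspa5, -0.041 to 0.079 for Edem1 and -0.079 to 0.406 for Syvn1. Between the treated genotypes they were -0.086 to 0.107 for Hspa5, -0.011 to 0.335 for Dnajb9, -0.028 to 0.301 for Manf, -0.042 to 0.084 for Herpud1 and -0.13 to 0.007 for Sel1l. Between Irf3-deficient HDM and wild type PBS cells they were -0.095 to 0.079 for Ssr3, -0.014 to 0.169 for Manf and -0.041 to 0.043 for Atf6. The causes were not tested. Groups of 2 and 3 pools limit every comparison.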
